A study of Mus musculus with 8 samples.

Results

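The comparison described here is that of kidneys from tubular Bmal1 knockout mice (cKOt) with kidneys from control littermates (Ctrl), collected at Zeitgeber Time 16 (ZT16), that is, in the dark phase when mice are active. Its members are the 2 cKOt and the 2 Ctrl single-nucleus libraries of that time, 4 of the 8 libraries of the series. They were chosen by genotype and time point alone, and UMIs (unique molecular identifiers, each standing for a captured transcript) were summed per gene over the nuclei of each library. The other 4 libraries are the same genotypes at ZT4, in the light phase, from other mice. All mice were male, on a C57BL/6J background, and homozygous for the lox-flanked Bmal1 allele. cKOt mice also had 2 transgenes, Pax8-rtTA and LC-1 Cre, and here the Pax8 promoter directs the doxycycline-dependent activator to renal tubules. From 8 weeks of age both genotypes drank doxycycline at 2 mg/ml with sucrose at 20 mg/ml for 2 weeks, so that Ctrl mice differ from cKOt mice in the transgenes and in the deletion but not in the agent. Nuclei came from central slices of frozen kidney that hold cortex and medulla, and were sorted by their DAPI stain. Endothelial, interstitial and immune nuclei were therefore sequenced together with those of the tubule in which the gene was deleted.

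BMAL1, encoded by Arntl, pairs with CLOCK or its paralog NPAS2 and activates genes through E-boxes. Among these genes are the Period and Cryptochrome repressors, which close the main feedback loop, the REV-ERB receptors, which repress Arntl, Npas2 and Cry1 through elements that they share with the activating ROR receptors, and the PAR bZIP factors DBP, TEF and HLF, which act on D-boxes. In the kidney this clock is known to time transport along the nephron and metabolism in the proximal tubule.

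At ZT16 the libraries held 41123 nuclei of 41763 barcodes after removal of those under 500 genes or 800 UMIs, or with a mitochondrial share of UMIs over 2%, out of 81391 nuclei in the series. Each library held between 8758 and 10975 nuclei and between 43810013 and 54500820 UMIs, and the median nucleus between 3226 and 4830 UMIs. The libraries shared 190 of 40933 barcode strings. Replicates differed by more than sampling noise, so each library counted as 1 sample. Kidney markers of all segments were found. The library Ctrl replicate 2 stood apart in Slc14a2, a urea transporter gene, with 1215 CPM (counts of UMIs per 1000000 mRNA UMIs of a library, with TMM scaling) against 188 in Ctrl replicate 1 and 99.2 and 243 in the cKOt libraries. Collecting duct principal nuclei, which supplied 69.6% of the UMIs of Slc14a2, made up 6.34% of the nuclei of that library, against 4.04% in Ctrl replicate 1 and 2.28% and 4.02% in cKOt. Nuclei that carried proximal tubule markers made up 27.9% and 25.3% of the nuclei in Ctrl and 36.6% and 29.9% in cKOt. The summed level of 10 convoluted proximal tubule markers was 5752 and 5021 CPM in Ctrl against 8179 and 7071 in cKOt. None of the 10 was at 0 or called, and 4 were higher and 1 lower in cKOt without overlap of the libraries. In either direction, 35.1% of all mRNAs tested had no overlap. The summed level of 8 straight segment markers overlapped between genotypes, at 3147 and 3357 CPM in Ctrl and 4004 and 3116 in cKOt. A sum over all nuclei cannot tell a change within cells of a type from a change in how many such nuclei were sampled, and for that reason the values within each class are given further on.

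Over all nuclei, 16 mRNAs were higher (0.0994%) and 11 lower (0.0683%) in cKOt than in Ctrl, of 16094 tested (0.168% called in all, edgeR quasi-likelihood test with Benjamini-Hochberg adjusted p under 0.05, 979 or 6.08% at an unadjusted p under 0.05). Among lncRNAs, 12 were higher (0.259%) and 6 lower (0.13%) of 4631 tested (0.389% called, 330 or 7.13% at an unadjusted p under 0.05). The higher genes included the clock gene Npas2, the amino acid transporter Slc7a12 and the peroxisomal hydroxyacid oxidase Hao2, and the lower genes included the clock gene Nr1d2, the cytochromes P450 Cyp2a4 and Cyp2a5 and the carboxylesterase Ces1d. The ZT16 libraries of the genotypes did not overlap in any of these 45 genes, as in 35.1% of all mRNAs and 35.2% of all lncRNAs tested. DESeq2, the tool of the study, called 171 mRNAs (1.06%) and 26 lncRNAs (0.561%), and the 171 held each of the 27 mRNAs called by edgeR. Leaving out Ctrl replicate 1 or 2 reduced the 27 mRNAs to 11 or 8, and leaving out cKOt replicate 1 or 2 reduced them to 9 or 12.

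Promoter windows of the genes on which the following results turn are shown first, from 250 bases before to 50 bases after the annotated start. They were taken from RefSeq on GRCm38.p6 and are written 5′ to 3′ on the strand of the gene. Capitals mark matches, on either strand, to an E-box (CACGTG, in 7.15% of all 32851 such windows), an E-prime box (CACGTT, in 4.68%), a ROR element (TAGGTCA, in 2.61%, or TGGGTCA, in 3.98%) or a D-box (TTATGNAA, in 3.38%). The first pair belongs to clock genes that were called at ZT16, the second to clock genes that moved at ZT4 more than at ZT16 or were called in 1 tubular segment, and the third to the P450 genes that fell. Npas2 is at chr1:39194022-39194321 on the plus strand, Nr1d2 at chr14:18239057-18239356 on the minus strand, Cry1 at chr10:85185005-85185304 on the minus strand, Per3 at chr4:151044616-151044915 on the minus strand, Cyp2a4 at chr7:26306942-26307241 on the plus strand and Cyp2a5 at chr7:26835089-26835388 on the plus strand.
Npas2: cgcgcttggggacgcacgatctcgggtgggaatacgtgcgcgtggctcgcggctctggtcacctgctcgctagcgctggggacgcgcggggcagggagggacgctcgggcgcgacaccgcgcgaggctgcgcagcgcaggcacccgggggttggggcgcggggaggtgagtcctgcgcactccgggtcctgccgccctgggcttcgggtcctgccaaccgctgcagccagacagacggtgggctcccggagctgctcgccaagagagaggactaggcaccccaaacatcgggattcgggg
Nr1d2: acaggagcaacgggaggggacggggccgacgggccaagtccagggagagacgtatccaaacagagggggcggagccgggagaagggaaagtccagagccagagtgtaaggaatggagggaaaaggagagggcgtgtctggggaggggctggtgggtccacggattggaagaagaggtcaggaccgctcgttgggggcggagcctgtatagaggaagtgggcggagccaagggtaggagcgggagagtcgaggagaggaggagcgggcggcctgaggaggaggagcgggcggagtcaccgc
Cry1: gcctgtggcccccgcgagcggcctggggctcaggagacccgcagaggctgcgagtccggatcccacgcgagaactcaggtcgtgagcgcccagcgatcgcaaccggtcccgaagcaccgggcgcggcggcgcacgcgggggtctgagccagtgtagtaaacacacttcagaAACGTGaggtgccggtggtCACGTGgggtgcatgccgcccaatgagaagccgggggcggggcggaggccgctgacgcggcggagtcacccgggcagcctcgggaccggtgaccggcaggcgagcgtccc
Per3: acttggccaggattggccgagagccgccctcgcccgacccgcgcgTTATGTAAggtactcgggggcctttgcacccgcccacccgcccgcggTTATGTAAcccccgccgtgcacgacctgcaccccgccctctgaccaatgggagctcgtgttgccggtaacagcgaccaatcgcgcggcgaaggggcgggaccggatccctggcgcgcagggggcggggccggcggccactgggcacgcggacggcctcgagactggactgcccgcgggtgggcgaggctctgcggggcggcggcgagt
Cyp2a4: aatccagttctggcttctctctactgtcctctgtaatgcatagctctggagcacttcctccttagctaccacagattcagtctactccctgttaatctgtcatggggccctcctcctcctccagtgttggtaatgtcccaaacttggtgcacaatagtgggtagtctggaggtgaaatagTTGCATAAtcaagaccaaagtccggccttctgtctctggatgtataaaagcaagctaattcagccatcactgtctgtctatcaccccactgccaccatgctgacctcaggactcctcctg
Cyp2a5: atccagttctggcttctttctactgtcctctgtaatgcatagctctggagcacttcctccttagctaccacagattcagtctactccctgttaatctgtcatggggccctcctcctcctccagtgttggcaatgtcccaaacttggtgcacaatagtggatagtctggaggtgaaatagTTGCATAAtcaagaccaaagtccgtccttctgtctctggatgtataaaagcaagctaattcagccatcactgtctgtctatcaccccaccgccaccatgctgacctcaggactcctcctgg
The windows of Npas2 and Nr1d2 hold none of these letters. That of Cry1 holds an E-box at -60 and an E-prime box at -79, and that of Per3 a D-box at -205 with another copy closer to the start. The windows of Cyp2a4 and Cyp2a5 each hold a D-box, at -70 and at -71, and are identical at 294 of 299 aligned positions (98.3%). Of the genes called lower, 10 had a window, and 3 of these (Cyp2a4, Cyp2a5 and the guanine deaminase gene Gda) held a D-box, against 3.02% of the tested genes that had one. An E-prime box was held by 2 of the 10 (Anks1b and Gda), against 6.12%, and an E-box or a ROR element by none. Of the 17 genes called higher with a window, 2 held a D-box (Ddc and Hao2), 2 the ROR element TGGGTCA (Arsg and Ddc, against 4.31%), 1 an E-box (Chrna7, against 10.4%), 1 an E-prime box (Col6a6) and none TAGGTCA (against 2.5%). Such a match describes the letters only.

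The first question is how far the clock genes themselves differed between genotypes at this time. Of 29 clock and accessory clock genes, 2 were called at ZT16, Npas2 and Nr1d2, against 9 at ZT4 (0.44% of 16145 mRNAs called at ZT4). DESeq2 called 4 at ZT16, adding Arntl and Per3. Npas2, at chr1:39193702-39363240 on GRCm38.p6, measured 125 and 125 CPM in Ctrl and 473 and 447 in cKOt. Its log2 fold change was 1.88 ± 0.15 (SE, n = 2 a group, edgeR adjusted p = 0.00262). Nr1d2, which encodes REV-ERB beta and lies at chr14:18204056-18239106, measured 45.3 and 48.8 CPM in Ctrl and 15.7 and 21.5 CPM in cKOt (log2 fold change -1.34 ± 0.16, adjusted p = 0.0240). In both genes the replicates were close to each other and the genotypes well apart.

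Arntl, the targeted gene, measured 154 and 159 CPM in Ctrl and 296 and 267 CPM in cKOt at ZT16, a log2 fold change of 0.85 ± 0.18 that did not pass edgeR's test (adjusted p = 0.169) and did pass that of DESeq2 (adjusted p = 0.00270). Its counts are not limited to the deleted part of the gene, so they check neither the deletion nor the labels. Both cKOt libraries were above both Ctrl libraries. At ZT4 Arntl measured 38.2 and 33.1 CPM in Ctrl and 295 and 201 CPM in cKOt. The cKOt libraries thus held similar levels at the 2 times while those of Ctrl were low at ZT4 alone.

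Per3, a Period gene, measured 43.5 and 34.6 CPM in Ctrl and 23.2 and 21.1 CPM in cKOt at ZT16 (log2 fold change -0.82 ± 0.15, edgeR adjusted p = 0.114, DESeq2 adjusted p = 0.000964). The genotypes did not overlap. Cry1, a Cryptochrome, measured 37.0 and 38.5 CPM in Ctrl and 54.3 and 56.5 CPM in cKOt (0.55 ± 0.17, edgeR adjusted p = 0.552). Both cKOt libraries of Cry1 were above both Ctrl libraries. Dbp, a PAR bZIP gene that measured 32.0 and 24.7 CPM in Ctrl at ZT4, was low at ZT16 in every library, at 2.91 and 2.13 CPM in Ctrl and 2.05 and 2.17 CPM in cKOt. Per1, Per2, Clock, Cry2, Hlf and Bhlhe40 had log2 fold changes between -0.27 and 0.20 with edgeR adjusted p of 1. Among 18 output genes of the clock, none was called by edgeR, and DESeq2 called 1 higher (Ppard) and 4 lower (Nampt, Wee1, Lpin1 and Tsku), beside 1.06% of all mRNAs. Of the latter, Nampt, which makes a precursor of NAD, measured 109 and 125 CPM in Ctrl and 76.1 and 79.7 CPM in cKOt (log2 fold change -0.59 ± 0.11, edgeR adjusted p = 0.129).

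Whether the genotype difference at ZT16 differed from that at ZT4 was tested as an interaction over all 8 libraries. It was called for 3 mRNAs of 16351 (0.0183%), each with a smaller rise in cKOt at ZT16 than at ZT4. For Npas2 the log2 fold change was 1.88 at ZT16 and 3.97 at ZT4, where Ctrl measured 25.1 and 33.1 CPM and cKOt 494 and 419 CPM (difference -2.09 ± 0.21, edgeR adjusted p = 0.0437). For Cry1 it was 0.55 at ZT16 and 2.998 at ZT4, where Ctrl measured 6.31 and 5.22 CPM and cKOt 54.0 and 37.9 CPM (difference -2.44, edgeR adjusted p = 0.0437). In both genes it was Ctrl that differed between the times, and the cKOt libraries lay within similar ranges. Rhobtb1, which encodes a protein with BTB domains, measured 845 and 815 CPM in Ctrl and 1512 and 1231 CPM in cKOt at ZT16, against 189 and 223 CPM in Ctrl and 1358 and 1242 CPM in cKOt at ZT4 (difference -1.93 ± 0.21, edgeR adjusted p = 0.0437). Arntl missed the threshold, with an edgeR adjusted p of 0.0849 at a difference of -1.95 ± 0.25. No lncRNA was called by edgeR (211 at an unadjusted p under 0.05), and DESeq2 called 48 mRNAs (0.294%) and 1 lncRNA (0.0203%). With a single library left out edgeR called from 0 to 2 mRNAs, and 1 of the 3 genes was among them without cKOt replicate 2 of ZT4 and none without any other library.

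**Figure D1:**
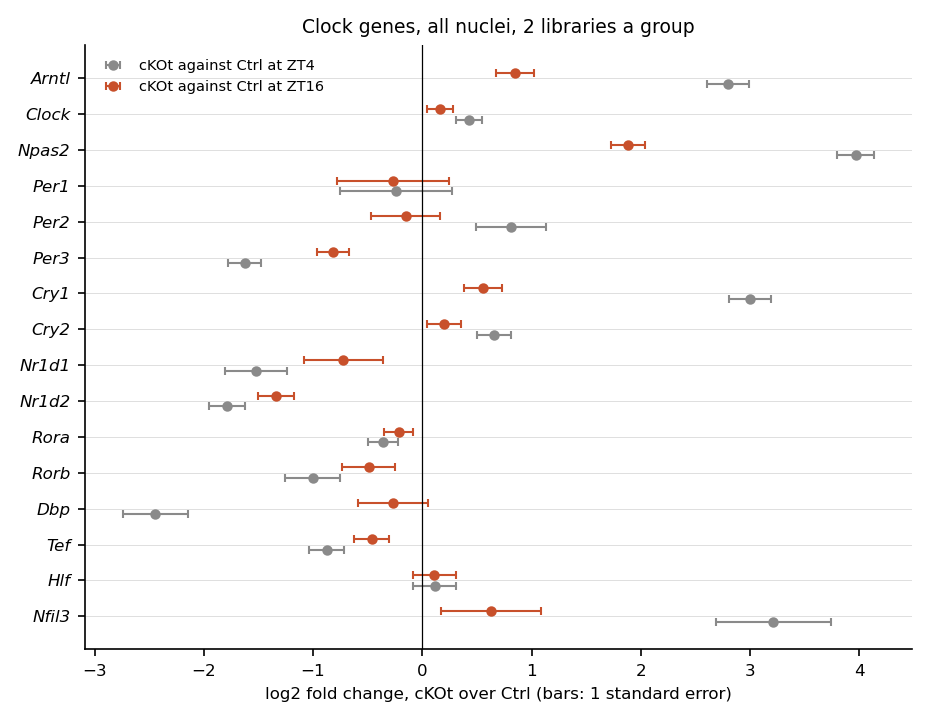
Log2 fold change of cKOt over Ctrl (horizontal axis, bars of 1 standard error, 2 libraries a group) for 16 clock genes at ZT4 (grey) and ZT16 (orange). Npas2 lies at 3.97 and 1.88, Cry1 at 2.998 and 0.55 and Dbp at -2.44 and -0.26, while Nr1d2 lies at -1.79 and -1.34.

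Outside the clock, the genes that rose in cKOt at ZT16 included a transporter and several enzymes. Fhad1, which encodes a protein with a forkhead-associated domain and lies at chr4:141890430-142015127, had the smallest p. It measured 2.25 and 2.15 CPM in Ctrl and 70.7 and 53.1 CPM in cKOt (log2 fold change 4.81 ± 0.20, edgeR adjusted p = 4.37e-05). Slc7a12, an amino acid transporter, measured 2.23 and 4.20 CPM in Ctrl and 77.4 and 43.4 CPM in cKOt (4.25 ± 0.48, adjusted p = 0.0184). Both were nearly silent in each Ctrl library. Hao2, a peroxisomal oxidase of hydroxy acids, measured 33.1 and 18.9 CPM in Ctrl and 203 and 209 CPM in cKOt (2.98 ± 0.42, adjusted p = 0.0417). Ddc, whose product makes dopamine from L-DOPA in the proximal tubule, measured 92.5 and 71.8 CPM in Ctrl and 188 and 171 CPM in cKOt (1.13 ± 0.14, adjusted p = 0.0249). Idi1, an isomerase of the cholesterol pathway, measured 16.0 and 19.8 CPM in Ctrl and 48.1 and 36.3 CPM in cKOt (1.24 ± 0.17, adjusted p = 0.0405). These 3 enzyme genes stood above the range of Ctrl in both cKOt libraries.

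The other higher mRNAs included Grid1, Chrna7 and Unc13c. Grid1, a glutamate receptor subunit of the delta class, measured 25.6 and 25.0 CPM in Ctrl and 112 and 122 CPM in cKOt (log2 fold change 2.21 ± 0.13, edgeR adjusted p = 0.000270). Chrna7, the alpha-7 subunit of nicotinic acetylcholine receptors, measured 11.5 and 18.2 CPM in Ctrl and 81.3 and 62.8 CPM in cKOt (2.29 ± 0.26, adjusted p = 0.0184). Unc13c, which primes vesicles for release, measured 61.4 and 74.7 CPM in Ctrl and 201 and 160.4 CPM in cKOt (1.41 ± 0.16, adjusted p = 0.0184). In none of the 3 did a cKOt library come near the Ctrl range. The prohormone convertase Pcsk2, the adaptor Dok6, the serine protease Tmprss9, the arylsulfatase Arsg, the collagen VI chain Col6a6 and the Nck-associated Nckap5 were also called higher, with log2 fold changes between 0.78 for Arsg and 3.74 for Col6a6. Vmn1r32, a vomeronasal receptor gene, had 2 UMIs in the Ctrl libraries together and 692 in the cKOt libraries, a ratio of 347 with a 95% counting interval from 95.8 to 2874. The receptor genes of this family resemble each other, so which copy the reads came from is uncertain.

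Among the lower mRNAs, the P450 genes of the 2a subfamily fell most. Cyp2a4, a steroid hydroxylase at chr7:26307192-26315088, measured 29.4 and 25.8 CPM in Ctrl and 4.94 and 3.12 CPM in cKOt (log2 fold change -2.77 ± 0.22, edgeR adjusted p = 0.00262). Cyp2a5, a coumarin hydroxylase at chr7:26835339-26843264, measured 8.47 and 7.88 CPM in Ctrl and 0.565 and 0.476 CPM in cKOt (-3.96 ± 0.32, adjusted p = 0.00262). The copies are nearly identical, so how the counts divide between them is uncertain, but each lay lower in both cKOt libraries. Ces1d, a carboxylesterase that cleaves lipids and drugs, measured 84.4 and 98.7 CPM in Ctrl and 15.5 and 12.8 CPM in cKOt (-2.69 ± 0.31, adjusted p = 0.0188). Serpina1d, a serine protease inhibitor of a cluster of similar genes that overlaps Serpina1b, fell by 2.12 ± 0.29 on the log2 scale, and its share of the counts is uncertain for the same reason.

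The other lower mRNAs included a collagen, a receptor and a potassium channel. Col27a1, a fibrillar collagen, measured 242 and 238 CPM in Ctrl and 110.03 and 98.3 CPM in cKOt (log2 fold change -1.20 ± 0.11, edgeR adjusted p = 0.00617). Adgrb3, an adhesion G protein-coupled receptor, measured 44.5 and 57.4 CPM in Ctrl and 17.8 and 16.0 CPM in cKOt (-1.59 ± 0.17, adjusted p = 0.0179). Kcnq3, a voltage-gated potassium channel, measured 20.7 and 24.1 CPM in Ctrl and 6.70 and 7.11 CPM in cKOt (-1.70 ± 0.15, adjusted p = 0.00385). In all 3 the replicates were close and the cKOt libraries well under the lower Ctrl library. Gfra1, a co-receptor for GDNF, Gda and Anks1b fell by 1.80, 1.44 and 1.99 on the log2 scale.

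**Figure D2:**
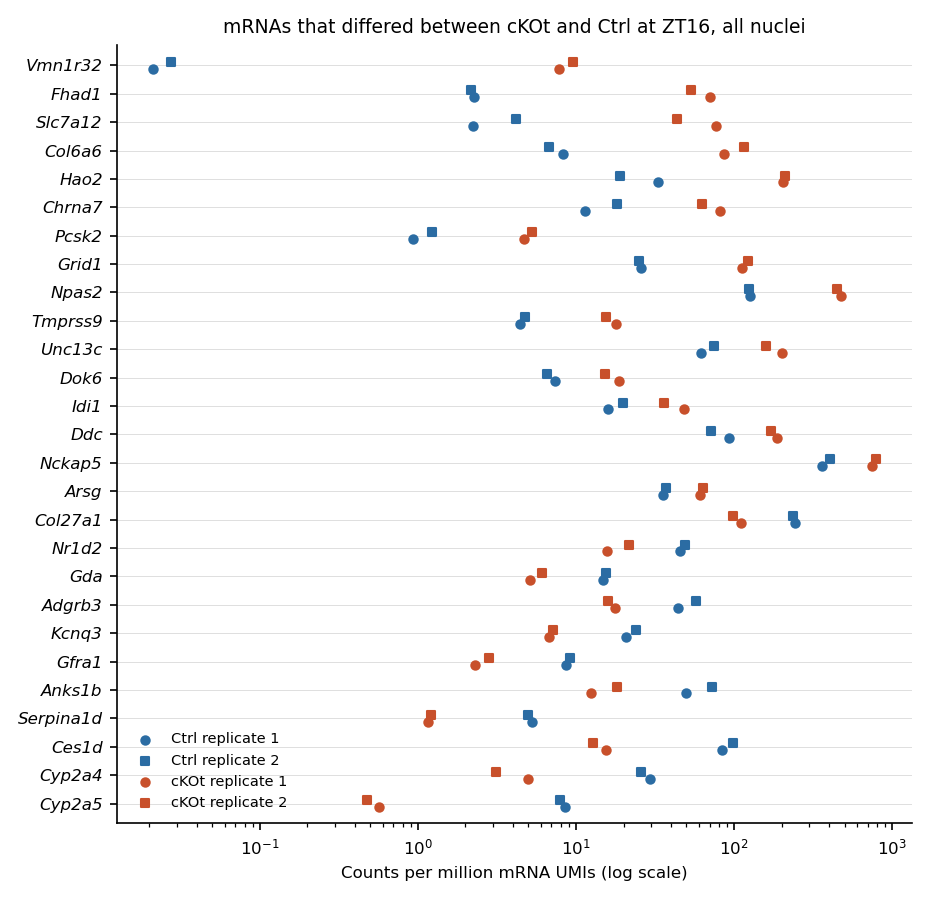
CPM scaled to the mRNA UMIs of each library (log axis) of the 27 mRNAs that differed at ZT16 over all nuclei, a point for each library (blue, Ctrl; orange, cKOt; circle, replicate 1; square, replicate 2). The libraries of the genotypes are separate in every gene, from Vmn1r32 at 0.0212 and 0.0273 against 7.76 and 9.57 to Cyp2a5 at 8.47 and 7.88 against 0.565 and 0.476.

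The lncRNAs were fitted apart from the mRNAs, and their CPM are scaled to all lncRNA UMIs of a library. Most are known by clone names with no described role. Gm32461, at chr16:86769926-86806513, measured 559.6 and 562 CPM in Ctrl and 1416 and 1372 CPM in cKOt (log2 fold change 1.31 ± 0.19, edgeR adjusted p = 0.00827). Gm13936 measured 66.2 and 46.5 CPM in Ctrl and 432 and 559 CPM in cKOt (3.13 ± 0.38, adjusted p = 0.00257). 9030625G05Rik measured 5.01 and 2.80 CPM in Ctrl and 40.4 and 23.8 CPM in cKOt (2.999 ± 0.36, adjusted p = 0.00257). In all 3 the cKOt libraries lay above both Ctrl libraries. Gm33906 varied within Ctrl, with 86.9 CPM in replicate 1 and 318 CPM in replicate 2, but stayed well below the 1916 and 2355 CPM of cKOt (3.40 ± 0.60, adjusted p = 0.0281).

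2 of the higher lncRNAs, Fhad1os2 and Fhad1os1, are antisense to Fhad1 and overlap it by 9859 and 3806 bases. Fhad1os2 measured 0.307 and 0.155 CPM in Ctrl and 3.27 and 4.29 CPM in cKOt (log2 fold change 3.86 ± 0.62, edgeR adjusted p = 0.0201). Fhad1os1 had 0 UMIs in Ctrl and 34 in cKOt, at least 10.3-fold higher against a floor of 3 UMIs over the Ctrl group. No source read for this work gives whether the counts used strand. Whether they separate reads of Fhad1 from those of its antisense partners is therefore uncertain here. The same holds for Gm15441, which is antisense to Txnip, and for Gm47591, which lies on the same strand as Anks1b and fell with it.

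Among the lower lncRNAs, Gm15441 measured 46.7 and 115 CPM in Ctrl and 14.6 and 13.9 CPM in cKOt (log2 fold change -2.50 ± 0.49, edgeR adjusted p = 0.0384). B930092H01Rik measured 29.7 and 18.8 CPM in Ctrl and 8.30 and 6.16 CPM in cKOt (-1.75 ± 0.32, adjusted p = 0.0322). Gm13211, Gm13412, Gm44127 and Gm47591 fell by between 1.59 and 3.40 on the log2 scale. Both Ctrl libraries were above both cKOt libraries in each, although replicates within Ctrl spread more than for the mRNAs. The number of lncRNAs called depended on the fit: it was 2 with lncRNAs and mRNAs in the same fit, 33 with the ZT16 libraries alone, and 3, 0, 7 and 3 without Ctrl replicate 1, Ctrl replicate 2, cKOt replicate 1 and cKOt replicate 2.

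**Figure D3:**
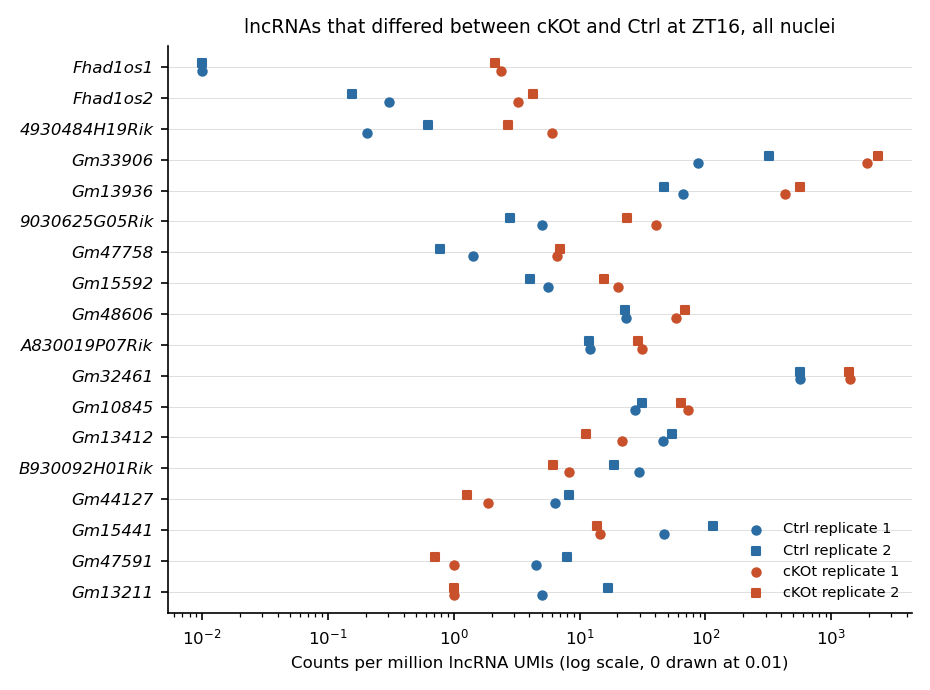
CPM scaled to the lncRNA UMIs of each library (log axis, a value of 0 drawn at 0.01) of the 18 lncRNAs that differed at ZT16 over all nuclei, a point for each library (blue, Ctrl; orange, cKOt; circle, replicate 1; square, replicate 2). Gm33906 and Gm15441 show the spread within Ctrl (86.9 and 318, 46.7 and 115), while the cKOt points lie close together.

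The ZT4 libraries come from other mice than the ZT16 libraries. All 8 libraries were fitted in 1 model with a shared estimate of the spread, so the calls at the 2 times are not independent. All 27 mRNAs called at ZT16 had the same sign at ZT4, as did 59.9% of the 15888 mRNAs tested at both times, and 19 of them were called there (0.44% of all mRNAs tested at ZT4). Of the 18 lncRNAs, 17 were tested at ZT4 and had the same sign (55.6% over the 4390 lncRNAs tested at both times), with 5 called (0.811% of all lncRNAs tested at ZT4). Cyp2a4 measured 28.5 and 26.6 CPM in Ctrl and 2.63 and 3.09 CPM in cKOt at ZT4, levels close to those at ZT16. Grid1 had a log2 fold change of 2.21 at ZT16 and 1.06 at ZT4, and Col27a1 of -1.20 and -0.55. The interaction was not called for either.

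Lists of genes for functions of the kidney were read from the same fit. Of 21 tested genes of fatty acid oxidation and targets of PPAR alpha, none was called over all nuclei, and 18 had a log2 fold change below 0 (median -0.24, against 0.01 over all mRNAs tested). Angptl4, a PPAR alpha target that inhibits lipoprotein lipase, measured 16.2 and 12.1 CPM in Ctrl and 4.35 and 5.24 CPM in cKOt (-1.56 ± 0.31, edgeR adjusted p = 0.143, DESeq2 adjusted p = 4.16e-05). All 14 genes of the glucocorticoid and mineralocorticoid response lay below 0 (median -0.37), again with none called. Fkbp5, a chaperone that glucocorticoids induce, measured 243 and 249.8 CPM in Ctrl and 118 and 68.3 CPM in cKOt (-1.40 ± 0.50, edgeR adjusted p = 0.684). The cKOt libraries of Fkbp5 differed from each other by more than those of Ctrl.

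Of 20 cytochromes P450, 2 were called lower and 13 had a log2 fold change below 0 (median -0.42). Cyp4a12a, an omega-hydroxylase of fatty acids that is higher in males, measured 14.3 CPM in Ctrl replicate 1, 53.4 in Ctrl replicate 2, and 4.68 and 3.12 in cKOt (-3.11 ± 0.71, edgeR adjusted p = 0.227). Cyp7b1, an oxysterol hydroxylase, measured 371 and 507 CPM in Ctrl and 1124 and 763 CPM in cKOt (1.10 ± 0.26, edgeR adjusted p = 0.245). Of 14 amino acid transporters, 1 was called, Slc7a12. Slc7a8, a basolateral transporter of neutral amino acids, measured 171 and 148 CPM in Ctrl and 410.2 and 325 CPM in cKOt (1.21 ± 0.21, edgeR adjusted p = 0.0994). Of 15 genes of cholesterol synthesis, 13 had a log2 fold change below 0 (median -0.15), whereas Idi1 was called higher. Of 16 genes of phosphate, vitamin D and calcium handling, 13 were above 0 (median 0.27) and none was called, and the endocytic receptors Lrp2 and Cubn had log2 fold changes of 0.87 and 0.75. Both receptors are made in the proximal tubule. The summed level of 10 convoluted proximal tubule markers was higher in cKOt as well, as given above, but Lrp2 is itself among these markers. The sum is thus not separate from the value of Lrp2, and the part of proximal tubule nuclei in these values was not tested.

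Of 21 genes of sodium transport, none was called, and 11 lay above and 10 below 0 (median 0.01). Of 10 genes of water and urea handling, 9 lay below 0 (median -0.35) with none called. The summed level of 7 collecting duct markers was 332 and 420 CPM in Ctrl and 268 and 316 CPM in cKOt, with none called or at 0. Of the 7 markers, 2 were lower and 1 higher in cKOt without overlap of the libraries, beside 35.1% of all mRNAs in either direction. Avpr2 is both a marker and a member of the list, so the sum is not separate from it. The collecting duct principal class supplied 75.9% of the UMIs of Aqp4 on this list. The part of these nuclei in the values of the list was not tested. Slc14a2, whose values are given above, had a fold change of -2.04 ± 0.91 (log2) that was not called, and its Ctrl libraries overlapped those of cKOt. Within collecting duct principal nuclei it measured 2596 and 13453 CPM in Ctrl and 533 and 3223 CPM in cKOt, so Ctrl replicate 2 stood apart there too. Of 10 tested genes of the renin-angiotensin system, 7 lay above 0 (median 0.45) and none was called. The lists of organic ion transport, phase II conjugation, glucose handling, heat shock, immediate early genes, tubular injury and nuclear lncRNAs held 1 called gene, Ces1d. In all, 7 of the 292 list members tested were called by edgeR, beside 0.168% of all mRNAs and 0.389% of all lncRNAs, and 23 by DESeq2, beside 1.06% and 0.561%. The lists were chosen with results of these data known, so these shares are a description.

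Nuclei were clustered and the clusters named from fixed markers. 7 classes were compared, named here proximal tubule, thick ascending limb, distal convoluted and connecting tubule, collecting duct principal, intercalated, vascular and stromal for nuclei that are like these cells in their markers. In the proximal tubule class 28 genes were higher (0.164%) and 45 lower (0.263%) of 17105 tested (0.427% in all). The thick ascending limb had 28 calls (0.189%), the distal convoluted and connecting tubule 26 (0.193%), the intercalated class 35 (0.291%) and the collecting duct principal class 3 (0.0235%). The vascular class had 9 calls (0.0624%) and the stromal class 6 (0.0407%). The classes differ in depth, with 16282700 to 25439332 UMIs per library in the proximal tubule, 1009956 to 2740414 in the collecting duct and 1151435 to 1546789 in the intercalated class, and whether the numbers of calls differ between classes was not tested. In all, 136 genes were called in at least 1 class and 119 of them in 1 class, where a gene called in 1 class and not in another is not shown to differ between them.

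The proximal tubule values carry a limit in their clusters. Of the proximal tubule nuclei, 98.5% and 99.1% of those from cKOt lay in 4 clusters that held 3.03% and 32.6% of those from Ctrl. Of the 5 clusters in which Ctrl nuclei prevailed, 3 held ZT16 nuclei nearly all from Ctrl replicate 1 and 2 nearly all from Ctrl replicate 2. Clusters named from markers of the straight segment held 15.8% and 15.1% of the proximal tubule nuclei in Ctrl and 40.1% and 36.6% in cKOt. The leading genes of 2 of them include the called genes Fhad1, Slc7a12, Dok6, Col6a6 and Tmprss9. These shares depend on how whole clusters were named. A cluster with 43.3% of the class in Ctrl replicate 1 and another with 51.5% in Ctrl replicate 2 were named convoluted. Their mean marker scores (z of 0.98 and 0.96) were the lowest under that name. Over all nuclei the summed straight segment markers overlapped between genotypes, as given above. The part of the naming and of these shares in the values of the class was not tested. The leading genes of the clusters of this class include called genes such as Chrna7, Col6a6, Slc7a12 and Adgrb3. The class as a whole was therefore compared, not its clusters. Without Ctrl replicate 1 or 2 the 73 calls became 29 or 15, and without cKOt replicate 1 or 2 they became 8 or 5.

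Of the 27 mRNAs and 18 lncRNAs called over all nuclei, 24 and 5 were called within the proximal tubule class, whose nuclei are part of those sums, so the lists are not independent. The proximal tubule class supplied a median of 70.9% of the UMIs of the called mRNAs, against 35.4% over all mRNAs tested, and 81.9% of those of the called lncRNAs, against 34.3%. Fhad1 measured 1.36 and 1.49 CPM (here scaled to all UMIs of the class) in Ctrl and 102 and 93.1 in cKOt within this class, a log2 fold change of 6.10 ± 0.18 (edgeR adjusted p = 1.79e-06).

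The genes named from here on within classes were taken from the called genes, some of them after their values were seen. Of the 73 genes called within the proximal tubule, 44 were not called over all nuclei, and the ranges of all 73 were separate, as for 40.3% of the genes tested there. Nckap5 measured 51.7 and 58.6 CPM in Ctrl and 521 and 610 CPM in cKOt (log2 fold change 3.36 ± 0.17, edgeR adjusted p = 8.19e-05). Thra, the thyroid hormone receptor alpha, which overlaps Nr1d1 on the opposite strand, measured 24.9 and 19.3 CPM in Ctrl and 83.4 and 75.9 CPM in cKOt (1.85 ± 0.19, adjusted p = 0.00584). Pdgfd, a platelet-derived growth factor, measured 65.1 and 71.3 CPM in Ctrl and 208 and 251 CPM in cKOt (1.75 ± 0.24, adjusted p = 0.0263). The nuclear receptor coactivator gene Pnrc1, the L-type calcium channel gene Cacna1d, the phosphodiesterase gene Pde7b and the lysyl hydroxylase gene Plod2 were also higher, by 1.30 to 1.62 on the log2 scale.

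The genes that fell in the proximal tubule included 2 from the list of fatty acid oxidation and PPAR alpha targets. The first, Angptl4, measured 23.3 and 16.4 CPM in Ctrl and 1.26 and 0.718 CPM in cKOt (log2 fold change -4.28 ± 0.46, edgeR adjusted p = 0.00609). Ucp2, a carrier of the inner mitochondrial membrane, measured 8.15 and 7.18 CPM in Ctrl and 1.07 and 1.11 CPM in cKOt (-2.82 ± 0.28, adjusted p = 0.00506). The second, Acadl, the long-chain acyl-CoA dehydrogenase, measured 74.2 and 75.9 CPM in Ctrl and 34.4 and 32.2 CPM in cKOt (-1.17 ± 0.18, adjusted p = 0.0385). In each of them the cKOt replicates lay close together and under both Ctrl libraries. Also lower were Prkag3, a regulatory subunit of AMP-activated kinase (-3.31), Mfsd2a, a lipid transporter (-1.97), Slc25a42, a mitochondrial carrier of coenzyme A (-1.02), and Acsl3, an acyl-CoA synthetase (-0.98). On the list of fatty acid oxidation and PPAR alpha targets, 17 of 21 genes lay below 0 in this class (median -0.55, against 0.03 over all genes tested there), with these 2 called. On the glucocorticoid list 13 of 14 lay below 0 (median -0.65) with none called, and on the P450 list 15 of 20 (median -0.66) with Cyp2a4 and Cyp2a5 called. These leanings were not limited to this class. On the glucocorticoid list 14 of 14 lay below 0 in the distal convoluted and connecting tubule (median -0.42). In stromal nuclei it was 12 of 14 (median -0.33) and in vascular nuclei 11 of 14 (median -0.15). On the fatty acid list it was 16 of 17 in the distal class (median -0.30) and 12 of 19 in vascular nuclei (median -0.14).

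Other genes that fell in the proximal tubule included Tenm3, Wee1 and the lncRNA Gm15441. Tenm3, a teneurin adhesion protein, measured 68.9 and 65.9 CPM in Ctrl and 6.72 and 8.90 CPM in cKOt (log2 fold change -3.11 ± 0.21, edgeR adjusted p = 0.000771). Wee1, a cell cycle kinase and a target of the clock, measured 15.1 and 22.0 CPM in Ctrl and 7.47 and 7.02 CPM in cKOt (-1.35 ± 0.22, adjusted p = 0.0408). The gap between the genotypes was wider for Tenm3 than for Wee1. Gm15441 measured 12.8 and 34.9 CPM in Ctrl and 0.198 and 0.276 CPM in cKOt (-6.64 ± 0.94, adjusted p = 0.0294), with few UMIs left in cKOt.

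Npas2 was called higher in 6 of the 7 classes. In the distal convoluted and connecting tubule it measured 5.26 and 14.9 CPM in Ctrl and 232 and 243 CPM in cKOt (log2 fold change 4.62 ± 0.29, edgeR adjusted p = 4.35e-08). In intercalated nuclei it measured 8.72 and 1.76 CPM in Ctrl and 176 and 158 CPM in cKOt (4.83 ± 0.33, adjusted p = 6.78e-09). In the proximal tubule, where Ctrl held 174 and 179 CPM and cKOt 540.5 and 568 CPM, the log2 fold change was 1.65 ± 0.26 (adjusted p = 0.0385). In stromal nuclei Npas2 measured 24.3 and 48.3 CPM in Ctrl and 49.6 and 50.6 CPM in cKOt, a change of 0.48 ± 0.26 that was not called. The vascular nuclei measured 11.5 and 13.4 CPM in Ctrl and 45.4 and 43.9 CPM in cKOt (1.85 ± 0.22, adjusted p = 0.00325), between 6.59% and 8.41% of its proximal tubule level in the same library. For comparison, 18 markers of the proximal tubule had a median of 11.2% of their proximal tubule level in vascular nuclei (5.18% to 27.6% in single libraries), and the part of tubular RNA in the vascular value of Npas2 was not tested.

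Nr1d2 was called lower in the proximal tubule, the thick ascending limb, the distal convoluted and connecting tubule and intercalated nuclei, with log2 fold changes of -1.77, -1.57, -2.53 and -2.80. In intercalated nuclei it measured 44.9 and 44.0 CPM in Ctrl and 5.56 and 7.01 CPM in cKOt (-2.80 ± 0.32, edgeR adjusted p = 2.92e-05). In vascular nuclei it measured 46.2 and 52.7 CPM in Ctrl and 34.5 and 38.7 CPM in cKOt (-0.43 ± 0.15, not called). The difference between the proximal tubule and vascular effects was itself called for Nr1d2 (-1.41 ± 0.21, adjusted p = 0.00730) but not for Npas2 (-0.25, adjusted p = 0.945).

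The clock genes that were not called over all nuclei included some that were called in the distal nephron. Arntl measured 90.6 and 112 CPM in Ctrl and 349 and 322 CPM in cKOt in the distal convoluted and connecting tubule (log2 fold change 1.73 ± 0.22, edgeR adjusted p = 0.000423), and it was also called higher in intercalated nuclei (1.25 ± 0.18, adjusted p = 0.000677). In vascular nuclei Arntl measured 82.9 and 95.4 CPM in Ctrl and 104 and 94.5 CPM in cKOt (0.16 ± 0.19). Per3 measured 33.3 and 32.2 CPM in Ctrl and 12.1 and 10.1 CPM in cKOt in the distal convoluted and connecting tubule (-1.56 ± 0.25, adjusted p = 0.00704). The vascular ranges of Arntl and Per3 overlapped, whereas the distal ones were separate, as for 34.7% of all genes tested in the distal class. In the same distal class the PAR bZIP gene Tef and Nampt were called lower, at -0.93 and -1.09, and Ppard, a nuclear receptor for fatty acids, higher, at 1.41. Whether these effects differ between the distal and the vascular class was not tested.

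**Figure D4:**
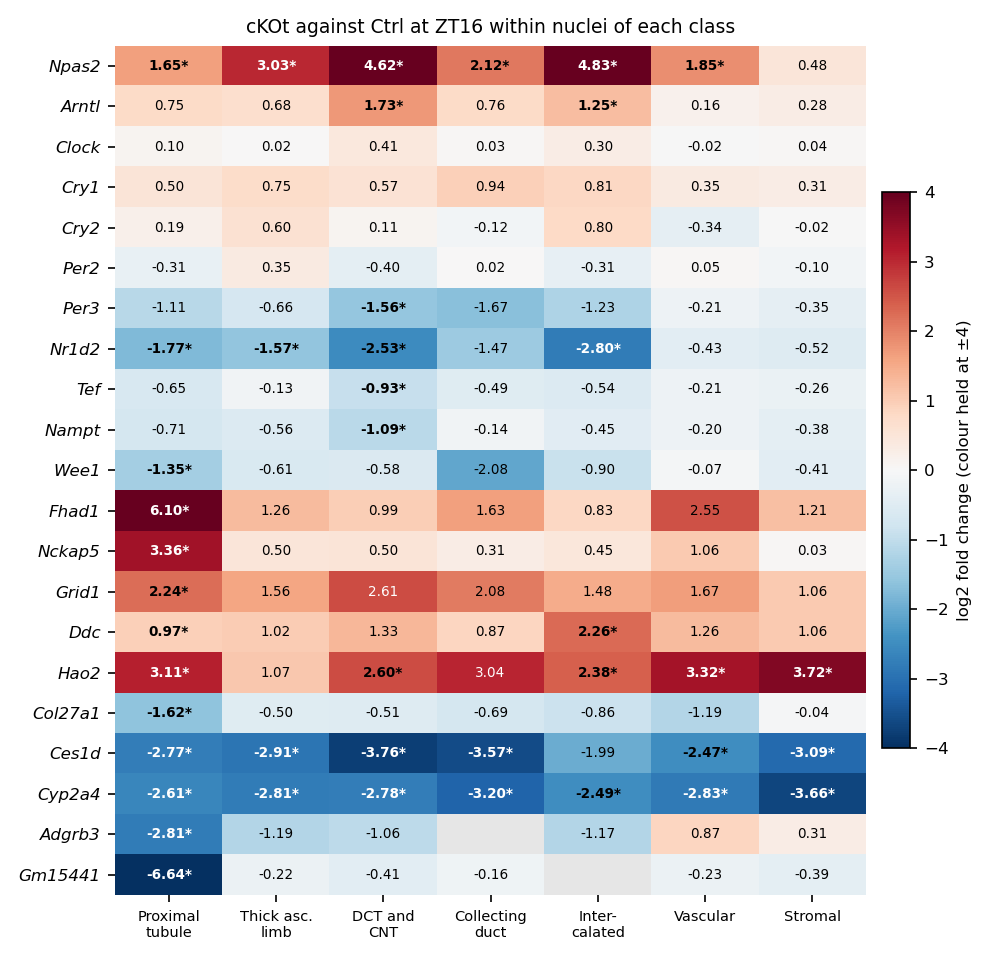
Log2 fold change of cKOt over Ctrl at ZT16 (colour held at 4 in either direction, values printed) for clock genes and other genes described in the text (rows) in 7 classes of nuclei (columns), with a star and bold type where the edgeR adjusted p was under 0.05. Grey cells were not tested or had at most 3 UMIs in a group. Npas2 runs from 0.48 in stromal to 4.83 in intercalated nuclei, and Nr1d2 from -0.43 in vascular to -2.80 in intercalated nuclei.

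Other genes were called in the distal segments and not over all nuclei. In the thick ascending limb, Shisa9, which encodes an auxiliary protein of glutamate receptors, measured 4.14 and 1.79 CPM in Ctrl and 35.8 and 32.5 CPM in cKOt (log2 fold change 3.44 ± 0.29, edgeR adjusted p = 3.14e-05). In that class Kcnma1, the large-conductance potassium channel, measured 68.9 and 69.7 CPM in Ctrl and 32.4 and 25.1 CPM in cKOt (-1.26 ± 0.18, adjusted p = 0.00581). In the distal convoluted and connecting tubule, Rnf150, a RING finger gene, measured 7.89 and 12.6 CPM in Ctrl and 80.7 and 81.3 CPM in cKOt (3.01 ± 0.27, adjusted p = 7.50e-06). All 3 had separate ranges. So had 33.1% of all genes tested in the thick ascending limb and 34.7% in the distal convoluted and connecting tubule. Umod, which encodes uromodulin of the thick ascending limb, was lower in the distal convoluted and connecting tubule as well (325 and 384 against 142 and 122 CPM). The summed level of 8 thick ascending limb markers over all nuclei was 6021 and 5970 CPM in Ctrl and 5229 and 5167 CPM in cKOt. That sum includes Umod, and of the 8 markers 4 were lower and 1 higher in cKOt without overlap of the libraries. The share of all mRNAs without overlap in either direction was 35.1%. The part of thick ascending limb RNA in the value of Umod was not tested.

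In intercalated nuclei, which regulate acid and base, Slc26a7, an anion exchanger, measured 206 and 211 CPM in Ctrl and 40.3 and 37.8 CPM in cKOt (log2 fold change -2.41 ± 0.25, edgeR adjusted p = 7.39e-06). Kcnq3 measured 506 and 643 CPM in Ctrl and 125 and 141 CPM in cKOt (-2.11 ± 0.19, adjusted p = 6.03e-07). Rhobtb1 measured 148 and 210.2 CPM in Ctrl and 417 and 392 CPM in cKOt (1.19 ± 0.18, adjusted p = 0.00133). Sctr, the secretin receptor, was higher by 1.32 ± 0.21 on the log2 scale, and Sgcd, Kctd16 and Negr1 were lower by 1.59 to 1.74.

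Of the 9 genes called in vascular nuclei, 8 were called over all nuclei and 7 in the proximal tubule. For Gm33906, Col6a6, Slc7a12, Ces1d and Hao2 among them, the level in vascular nuclei was between 5.75% and 28.8% of that in the proximal tubule of the same library, beside 5.18% to 27.6% for the 18 proximal tubule markers over the same libraries. The part of tubular RNA in these calls was not tested. Idi1, called in vascular and not in proximal tubule nuclei, lay at 40.4% to 60.1% of its proximal tubule level. Hao2 measured 9.29 and 4.46 CPM in Ctrl and 72.9 and 67.5 CPM in cKOt in vascular nuclei, against 43.7 and 25.0 CPM in Ctrl and 271 and 324 CPM in cKOt in the proximal tubule. Cyp2a4 measured 28.1 and 20.9 CPM in Ctrl vascular nuclei and 26.0 and 23.1 CPM in those of the proximal tubule, and it was called lower in all 7 classes, with log2 fold changes between -2.49 and -3.66. The level of Cyp2a4 was thus alike in proximal tubule and vascular nuclei of Ctrl. The part of RNA from other nuclei in its values across the classes was not tested. Vmn1r32 had 0 UMIs in the Ctrl nuclei of all 5 tubular classes and was at least 82.7-fold higher in the proximal tubule of cKOt, at least 41.3-fold in the thick ascending limb and at least 24.7-fold in the distal convoluted and connecting tubule, each against a floor of 3 UMIs over the Ctrl group. In vascular nuclei it had 2 UMIs in Ctrl and 15 in cKOt (ratio 8.61, 95% counting interval 2.00 to 77.6).

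The difference of the genotype effect between proximal tubule and vascular nuclei, tested with the library as a block, was called for 39 of 17641 genes (0.221%), and 18 of the 73 genes called in the proximal tubule were among them. For 38 of the 39 the change was farther from 0 in the proximal tubule. Tenm3 measured 18.6 and 26.8 CPM in Ctrl and 18.6 and 19.5 CPM in cKOt in vascular nuclei, against its drop in the proximal tubule given above (difference -2.94 ± 0.27, edgeR adjusted p = 8.35e-05). Pdgfd measured 796 and 872 CPM in Ctrl and 759.7 and 735 CPM in cKOt in vascular nuclei (difference 1.85 ± 0.20, adjusted p = 0.000302). Acadl measured 71.9 and 63.9 CPM in Ctrl and 63.7 and 64.3 CPM in cKOt there (difference -1.14 ± 0.18, adjusted p = 0.00788). The vascular ranges of the genotypes overlapped for Tenm3 and Acadl and were separate but close for Pdgfd. Fkbp5, not called within the proximal tubule (-2.20, with 328 and 333 CPM in Ctrl and 102 and 41.7 CPM in cKOt), had a called difference from vascular nuclei of -2.17 ± 0.31 (adjusted p = 0.00501), and so had Txnip (-2.37), an arrestin-like protein that glucose induces and whose gene overlaps Gm15441, and Mgll (-2.59), the monoacylglycerol lipase.

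**Figure D5:**
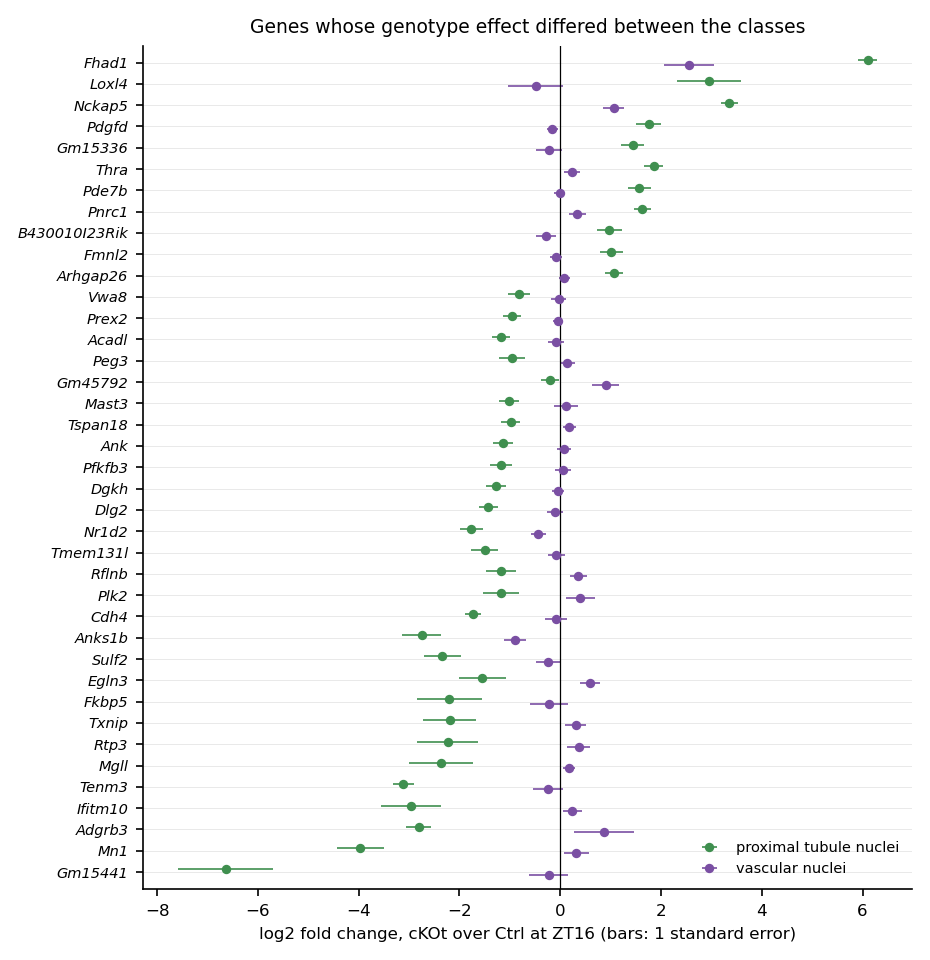
Log2 fold change of cKOt over Ctrl at ZT16 (horizontal axis, bars of 1 standard error) in proximal tubule (green) and vascular (purple) nuclei for the 39 genes whose effect differed between the classes. The vascular points lie near 0 for most genes, as for Tenm3 (-3.11 and -0.24) and Pdgfd (1.75 and -0.16), while Fhad1 lies at 6.10 and 2.55, the latter not called (edgeR adjusted p = 0.123).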

How the data were processed

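Single-nucleus RNA sequencing (10x Chromium 3′ v3.1) was performed by the authors on frozen kidneys of 8 mice, 2 in each of 4 groups of genotype and time. The deposited matrices hold raw UMI counts per gene and nucleus for 32285 genes. Per the labels they were made with bcl2fastq 2.20 and Cell Ranger 7.1.0 on GRCm39, while the study's methods name an mm10 reference, and no replicates were pooled. The handling of intronic reads is not given in the sources that were read. Promoters and positions come from RefSeq on GRCm38.p6, matched by symbol and never combined with coordinates of another build.

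Barcodes under 500 genes, under 800 UMIs or over 2% mitochondrial UMIs were removed, and the remaining nuclei were summed per library. The ZT16 sums were 54500820 and 43810013 UMIs in Ctrl replicates 1 and 2 and 52033955 and 47408900 UMIs in cKOt replicates 1 and 2. mRNAs (21286 genes) and lncRNAs (9578 genes) were fitted apart, and 571 genes with no biotype were left out. Genes with at least 5 counts in both libraries of a compared group were tested in a model of all 8 libraries with TMM scaling and the quasi-likelihood test of edgeR 4.0.16 in R 4.3.3, adjusted by Benjamini-Hochberg at 0.05 within biotype and contrast. Printed CPM carry the TMM factors. Errors are standard errors of the log2 fold change, obtained by dividing its size by the square root of the quasi-likelihood F statistic. Each library is a separate mouse. The p-values rest on the spread between mice within all 4 groups, shared in 1 model and moderated across genes. For a single value a two-sided exact permutation test of 2 against 2 could not go below p = 0.333. Intervals and floors of 3 UMIs cover counting error only.

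Nuclei were clustered with igraph 0.11.9 (numpy 2.4.6, scipy 1.17.1, pandas 2.3.3, Python 3.11.15). Clusters were named from markers, and those with mixed markers were set apart. No doublet caller was run. Class sums were fitted with all biotypes together, and the proximal tubule was compared with vascular nuclei with the library as a block. The fits were tested on simulated data in which 200 genes were changed.

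The alternatives were DESeq2 1.42.0, median-ratio scaling, no filter or a filter of 20 counts, all biotypes in 1 fit, the ZT16 libraries alone, all barcodes, the replicate number as a block, another clustering resolution, removal of the 5% of nuclei with the most UMIs, and each library left out. Named genes are the clock genes, called genes of smallest p whose libraries did not overlap (up to 10 mRNAs and 6 lncRNAs a direction), up to 4 members a list, up to 6 genes of the interaction, and up to 3 genes a class and direction. Other named genes were chosen after their values were seen. The members and lists were chosen with earlier results of these data known. Figures were drawn with matplotlib 3.10.9. Results for some genes are not reported here.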

Additional observations from a re-analysis of the deposited data

Results flagged for a closer look

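The genotype effect differed between ZT16 and ZT4, tested as an interaction with edgeR, for Npas2 by -2.09, for Cry1 by -2.44 and for Rhobtb1 by -1.93 (log2, ZT16 minus ZT4).

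The genotype effect at ZT16 differed between proximal tubule and vascular nuclei, tested with the library as a block, for 39 genes, of which those named in the report and Mn1 are given here. On the log2 scale, proximal tubule minus vascular, the difference was 2.25 for Nckap5, 1.85 for Pdgfd, 1.57 for Thra, 1.499 for Pde7b, 1.24 for Pnrc1 and 3.48 for Fhad1. It was -6.38 for the lncRNA Gm15441, -2.94 for Tenm3, -4.34 for Mn1, -1.41 for Nr1d2, -3.70 for Adgrb3, -1.89 for Anks1b, -2.17 for Fkbp5, -2.37 for Txnip, -1.14 for Acadl and -2.59 for Mgll. No group had enough libraries for a test of outlying samples.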

How the results depend on the processing

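Of the 45 genes called at ZT16 over all nuclei, none changed direction under any alternative run. The calls kept were 44 with DESeq2, 45 with median-ratio scaling, with all barcodes and with no filter, 42 with at least 20 counts asked for in both libraries of a group, 36 with the ZT16 libraries alone, 33 with the replicate number as a block, 28 with all biotypes in 1 fit, and 13, 8, 11 and 14 without Ctrl replicate 1, Ctrl replicate 2, cKOt replicate 1 and cKOt replicate 2 of ZT16. With DESeq2 the counts of calls became 171 mRNAs (from 27), 48 mRNAs and 1 lncRNA in the interaction (from 3 and 0), 23 list members (from 7), and 257 genes in the proximal tubule (from 73), 44 in the thick ascending limb (from 28), 8 in the collecting duct (from 3) and 15 in vascular nuclei (from 9). With no filter they became 64 mRNAs and 67 lncRNAs, 10 and 21 in the interaction, and 663 in the proximal tubule, 147 in the thick ascending limb, 125 in the distal convoluted and connecting tubule, 104 in the collecting duct, 86 in intercalated, 91 in vascular and 73 in stromal nuclei. The lncRNA calls (18) became 2 with all biotypes in 1 fit and 33 with the ZT16 libraries alone. The cause of these shifts was not tested.

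Replicate numbers were not taken as pairs, since the deviations of same-numbered libraries correlated between -0.267 and 0.437 across mRNAs for the 6 pairs of groups, with 0.433 between the genotypes at ZT4 and 0.437 at ZT16. With the replicate block edgeR called 29 mRNAs, 9 lncRNAs, 0 mRNAs in the interaction and 56 genes in the distal convoluted and connecting tubule (from 26).

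With each library left out in turn, calls ranged from 8 to 31 for mRNAs, 0 to 26 for lncRNAs, 0 to 2 and 0 to 1 in the interaction for mRNAs and lncRNAs, 3 to 7 for list members, 5 to 29 in the proximal tubule, 12 to 20 in the thick ascending limb, 13 to 17 in the distal convoluted and connecting tubule, 0 to 1 in the collecting duct, 13 to 22 in intercalated, 2 to 4 in vascular and 1 to 4 in stromal nuclei, and 19 to 39 for the difference between proximal tubule and vascular nuclei. A group left with 1 library was assumed to vary like the others. Log2 fold changes that crossed 0 when a library was left out, none of them called, were those of Per1 (-0.66 to 0.0279), Per2 (-0.63 to 0.20), Hlf (-0.19 to 0.48), Bhlhe40 (-0.0301 to 0.21), Csnk1d (-0.0233 to 0.0607), Fbxl21 (-0.14 to 0.17), Hspa1b (-0.99 to 0.0371), Hsp90aa1 (-0.50 to 0.0343) and Ier2 (-0.0266 to 0.74). The collecting duct held 200 nuclei in cKOt replicate 1, and the part of depth in the number of calls was not tested.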
